A study of Mus musculus with 12 samples.

Results

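The genes described here are 33 mouse genes with almost no reads in dorsal root ganglion (DRG) cultures until the GI-SINE ASO mix was added. They were selected on their measured levels. A gene of any class was taken if its mean was under 1 CPM (count divided by the library's total count, times 1000000) in the untransfected group and under 1 CPM in the control ASO group, if its mean was at least 3 CPM in the ASO mix group, and if its CPM was higher with the mix than with the control ASO in each of the 4 mice. Protocadherin genes and Ptprv were left out by name, which removed 1 gene that met the thresholds. The 33 members came from 48795 gene IDs, of which 34019 had a mean under 1 CPM in both groups without the mix. Because all 3 groups entered the selection, the members' levels and fold changes are given as a description, with no p-value. Tests are given only for other genes, and counts over gene lists leave the members out.

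The data are RNA-seq gene counts from 12 libraries of primary DRG cultures of C57/Bl6 wt mice. The DRG is where the cell bodies of sensory neurons lie, among glia, connective tissue and vessels. Each of 4 mice gave 1 culture that was split into 3 parts, which received 50 nM of the ASO mix, 50 nM of a control ASO, or no transfection. The mice's age and sex, the sequences of the ASOs and the level of the GI-SINE RNA that they address were not analysed here. Total counts ran from 14864622 to 22704267, so 1 CPM corresponded to between 14.9 and 22.7 reads in a library. In the mix libraries the members had 17 to 502 reads each. In the 8 other libraries no member had more than 52 reads, and 1 of 264 values was 0. Sensory neuron markers were abundant in every group, with a summed level of their 14 genes of 7215 to 9450 CPM in untransfected, 8572 to 10026 CPM in control ASO and 9232 to 10904 CPM in ASO mix libraries. With the mix, 7 of these 14 genes were higher and 1 lower than with the control ASO. The background for this and every later list was 27.3% higher and 28.8% lower among all tested genes. The 10 Schwann cell and satellite glia markers summed to 412 to 695 CPM, 181 to 274 CPM and 176 to 221 CPM in the same order, with 1 gene higher and 8 lower with the mix. The 12 fibroblast markers summed to 1046 to 1407, 405 to 589 and 444 to 571 CPM, with 1 higher and 5 lower. With the control ASO and the mix, both sums came in large part from the gene called higher. Among the glia markers that was S100b (84.6 CPM with the control ASO, 137 CPM with the mix), and among the fibroblast markers Thy1 (318 and 445 CPM). Among the lower genes, Sox10 went from 22.3 to 3.07 CPM and Col1a2 from 42.3 to 9.42 CPM. The part of these cell type shifts in the members' levels was not tested. In bulk cultures, fewer cells of a type and less RNA per cell cannot be told apart.

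An antisense oligonucleotide (ASO) binds an RNA whose sequence it complements. The mix is directed at RNAs of B2 elements, short interspersed repeats that RNA polymerase III transcribes. In mouse cells, B2 RNA is known to bind RNA polymerase II and to lower transcription after heat shock. In a total RNA library, reads on a gene with no other sign of use can come from its own promoter, from transcripts that run past the end of the gene before it, from introns of a host gene, or from transcription that leaves a neighbouring promoter in the opposite direction. Counts per gene do not separate these sources.

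Sequences of 4 members' start regions are shown, that of the member with the highest level and those of 3 members described with a neighbouring gene. They are RefSeq windows of GRCm38.p6, from 250 bases before to 50 bases after the annotated start, written 5′ to 3′ on the gene's strand. Capitals mark each CANNTG (E-box), the letters that basic helix-loop-helix factors such as Nhlh1 and Neurod1 are known to bind. The Rnf225 window is chr7:12927166-12927465 on the plus strand. The Rnf151 window (chr17:24718008-24718307, minus strand) also holds the start of Rps2, which is read the other way. The Rpl3l window (chr17:24727576-24727875, plus strand) lies further along the strand that Rps2 is read from, and the Nhlh1 window (chr1:172057547-172057846, minus strand) lies past the end of Ncstn.
Rnf225: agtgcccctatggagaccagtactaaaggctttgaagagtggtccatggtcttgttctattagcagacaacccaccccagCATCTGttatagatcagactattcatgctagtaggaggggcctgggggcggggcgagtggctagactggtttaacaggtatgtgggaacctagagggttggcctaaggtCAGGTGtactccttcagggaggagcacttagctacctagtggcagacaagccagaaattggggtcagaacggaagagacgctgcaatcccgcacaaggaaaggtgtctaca
Rnf151: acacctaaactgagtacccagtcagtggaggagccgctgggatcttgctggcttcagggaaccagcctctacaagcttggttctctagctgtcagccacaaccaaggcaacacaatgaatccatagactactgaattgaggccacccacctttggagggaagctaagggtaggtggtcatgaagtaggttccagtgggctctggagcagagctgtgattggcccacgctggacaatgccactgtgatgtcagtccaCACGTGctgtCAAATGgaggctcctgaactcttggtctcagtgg
Rpl3l: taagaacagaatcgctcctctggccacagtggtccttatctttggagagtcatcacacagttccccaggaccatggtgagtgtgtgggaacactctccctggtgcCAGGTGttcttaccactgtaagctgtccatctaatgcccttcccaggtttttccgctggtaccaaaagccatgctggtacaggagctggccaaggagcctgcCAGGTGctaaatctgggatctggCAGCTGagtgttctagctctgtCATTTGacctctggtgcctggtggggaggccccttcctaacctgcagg
Nhlh1: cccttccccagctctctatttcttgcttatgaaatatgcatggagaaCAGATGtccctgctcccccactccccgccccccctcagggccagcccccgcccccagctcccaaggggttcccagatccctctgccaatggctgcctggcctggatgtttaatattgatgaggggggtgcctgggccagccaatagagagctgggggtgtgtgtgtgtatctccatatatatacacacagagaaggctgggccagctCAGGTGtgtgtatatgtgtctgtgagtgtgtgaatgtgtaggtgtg
The only microRNA gene among the members, Mir1938, gives a mature RNA of 22 bases (mmu-miR-1938, chr12:40222782-40222803, minus strand, GRCm38.p6). Its seed, bases 2 to 8, is in capitals, and none of the other mature miRNAs in a table of 1738 has the same seed.
mmu-miR-1938: cGGUGGGAcuuguaguucgguc

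RefSeq windows were found for 17 of the 33 members, and Rpl3l has a pair of starts, which makes 18 windows. A RefSeq start is not always the GENCODE start of the counted gene, which is used below for positions. The Gm8251 window (chr1:44079697-44079996, minus strand) lies well before the GENCODE start at 44061936. The C030034I22Rik window (chr17:69416197-69416496, plus strand) ends before the GENCODE start at 69417402. Searched on both strands, CANNTG was in 17 of the 18 windows, against 72.3% of all 32851 windows. The Ccdc24 window was the one without it. The CCAAT box was in 7 member windows (37.4% of all windows), the GC box GGGCGG in 9 (35.7%), TATAAA in 3 (13.6%) and the E-box variant CACGTG, which is also a CANNTG, in 1, that of Rnf151 (7.15%). TGANTCA, the AP-1 letters, was in 2 member windows (7.81%), and GTTCNANNC, the B box of RNA polymerase III promoters, also in 2 (9.32%). The median GC content was 56.0% (range 35.3% to 74.0%) against 52.7% in all windows. The ratio of observed to expected CpG was 0.247 at the median against 0.384 in all windows. It reached 0.6 or more in 5 of 18 member windows (27.8%) and in 35.8% of all windows. These matches are letters in a window and show no factor at work.

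**Figure D1:**
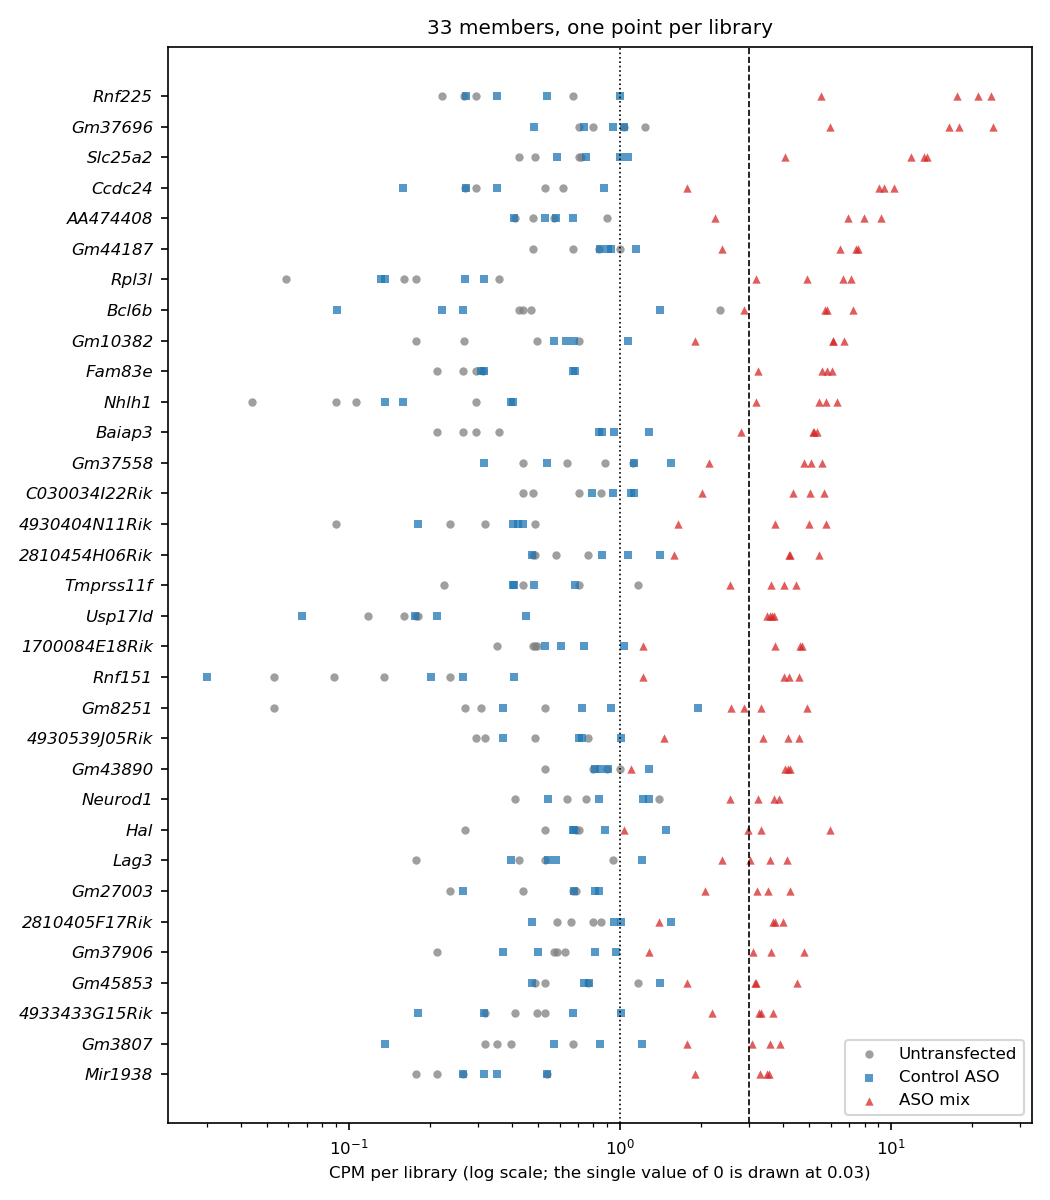
CPM of each of the 33 members (rows, by mean level in the mix group) in each of the 12 libraries, on a log axis. Grey circles are untransfected, blue squares control ASO and red triangles ASO mix libraries, and the lines at 1 and 3 CPM are the selection thresholds for group means. In 30 members all 4 mix libraries lie to the right of all 8 others, and the leftmost triangle is mouse 4 in 30 members.

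Added up, the members took 14.5, 14.1, 16.1 and 21.5 CPM in the untransfected libraries of mice 1, 2, 3 and 4, in that order throughout. They took 18.9, 23.3, 19.12 and 27.3 CPM with the control ASO and 196, 203, 193 and 80.4 CPM with the mix. The 4 mix libraries lay above the 8 others, and among them mouse 4 stood far below the other 3. The group means were 16.6 ± 3.38, 22.2 ± 3.97 and 168 ± 58.5 CPM (SD, n = 4). By edgeR's fit over all 12 libraries, the members' log2 fold changes of mix against control ASO ran from 1.82 to 5.12 with a median of 2.66, while the median of all 16831 tested genes was -0.03. Across those tested genes, 56.2% changed in this contrast, 27.3% higher and 28.8% lower. Of all called genes 48.7% were higher, or 34.0% when libraries were scaled by size alone, which moved the median of all genes to -0.15 and that of the members to 2.54. In 30 members every mix library exceeded every control ASO library, against 13.7% of tested genes, but the selection fixed this pattern in large part. The 3 members whose libraries overlapped were Gm43890, Hal and 2810405F17Rik.

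**Figure D2:**
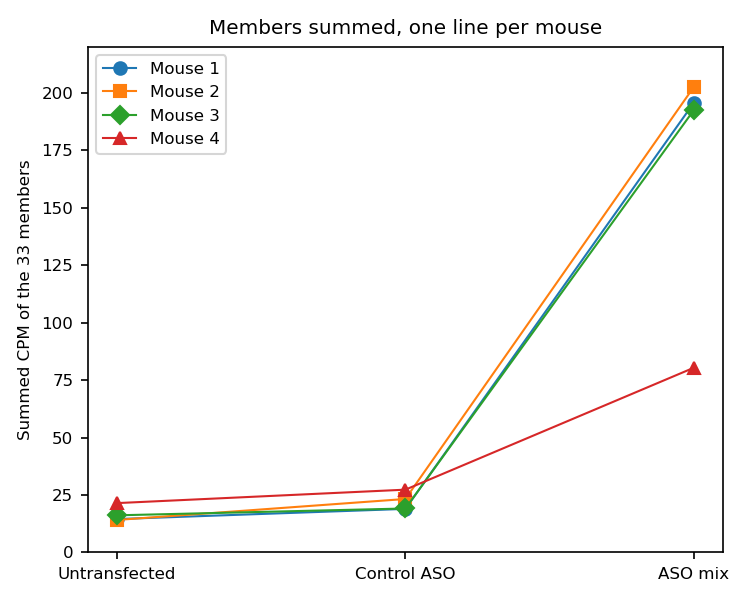
Summed CPM of the 33 members by condition, 1 line per mouse. Mice 1 to 3 lie between 193 and 203 CPM with the mix and mouse 4 at 80.4 CPM, while mouse 4 has the highest sum without the mix (21.5 and 27.3 CPM).

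Among the members, 17 are protein coding, 5 antisense and 3 long intergenic RNAs, 1 is a microRNA, and 7 are in the class TEC, provisional transcripts of GENCODE. They lie on 14 chromosomes, with at most 4 on any of them (6, 7 and 17). One annotated exon block was found in 16 members (48.5%) and in 13.2% of tested genes, and the median exonic length was 2729 bases against 4025. Per kb of exon, the mean mix level ran from 30.6 CPM for the 100-base Mir1938 and 7.79 CPM for Slc25a2 down to 0.539 CPM for Tmprss11f. The filter on low counts kept a gene that reached about 0.480 CPM in 4 libraries, and 10 of the 33 members passed it only with the mix libraries.

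The member with the highest level was Rnf225, a gene for a RING finger protein, the fold found in many ubiquitin ligases (ENSMUSG00000033967, GRCm38 chromosome 7, 12927416 to 12931072, plus strand). It stood at 0.221, 0.266, 0.295 and 0.673 CPM in untransfected cultures, at 0.271, 0.352, 1.00 and 0.538 CPM with the control ASO, and at 20.9, 23.3, 17.5 and 5.54 CPM with the mix. In reads, the mix libraries held 444, 480, 370 and 91 and the others 5 to 19. All mix libraries were far above the rest, mouse 4 least so. The log2 fold change of mix against control ASO was 5.12 ± 0.48 (SE, 4 mice). A second RING finger member, Rnf151, is known for its expression in mouse testis, where it takes part in acrosome formation (ENSMUSG00000008482, chromosome 17, 24715839 to 24718063, minus strand). It had 0.0882, 0.0531, 0.236 and 0.135 CPM untransfected, 0.407, 0, 0.264 and 0.202 CPM with the control ASO and 4.56, 4.04, 4.21 and 1.22 CPM with the mix, a log2 difference of 4.15 ± 0.42. The groups with and without the mix were apart, and mouse 4 was again the lowest. Of 8 tested genes in a list of RING finger relatives, 3 were higher and 2 lower with the mix (27.3% and 28.8% of all tested genes). Rnf183 was higher by 1.25 ± 0.17 (adjusted p = 9.42e-06, edgeR's quasi-likelihood test with Benjamini-Hochberg adjustment) and Rnf24 lower (log2 -0.60 ± 0.06, adjusted p = 4.56e-07).

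Rpl3l encodes a muscle paralog of the large-subunit ribosomal protein Rpl3 (ENSMUSG00000002500, chromosome 17, 24727820 to 24736143, plus strand). It measured 0.176, 0.159, 0.0589 and 0.359 CPM untransfected, 0.136, 0.132, 0.317 and 0.269 CPM with the control ASO and 4.89, 7.15, 6.67 and 3.17 CPM with the mix. Every mix library was far above every other, and the log2 fold change was 4.83 ± 0.34. Its parent Rpl3 was higher by 0.62 ± 0.06 (85.8 to 121 CPM, adjusted p = 3.11e-07, edgeR). In the list of ribosomal protein paralogs and their parents, 9 of 13 tested genes were higher and none lower, with a median of 0.39 and a background of 27.3% higher. Rps4l was higher by 0.81 ± 0.08, and Rpl10l was at 0 in all 12 libraries. Other muscle genes gave a mixed picture. Of 16 muscle markers 5 were tested, 1 higher (Mylpf, 0.84 ± 0.32, adjusted p = 0.0308, from 0.639 to 1.06 CPM, a call lost in 6 of the 9 alternative fits and subsets) and 1 lower (Ttn, -0.67 ± 0.12, adjusted p = 0.000465). Myog was at 0 throughout, and the list summed to 26.6 to 46.0 CPM untransfected, 40.1 to 45.4 CPM with the control ASO and 22.8 to 34.1 CPM with the mix.

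Slc25a2 encodes a mitochondrial carrier of ornithine and related basic amino acids and has a single coding exon (ENSMUSG00000050304, chromosome 18, 37637377 to 37638745, minus strand). It had 0.485, 0.425, 0.707 and 0.718 CPM untransfected, 0.588, 0.749, 1.00 and 1.08 CPM with the control ASO and 13.6, 13.2, 11.8 and 4.08 CPM with the mix. The mix libraries did not overlap the others, and the log2 fold change was 3.79 ± 0.33. Slc25a15, another ornithine carrier, was lower (log2 -0.30, adjusted p = 0.0208, edgeR, a call lost in 4 of 9 alternatives). Slc25a29, a further carrier in the list, had no call (log2 -0.03, adjusted p = 0.912, edgeR). Around this pathway, 4 of 8 tested genes were higher and 1 lower. Odc1, which turns ornithine into putrescine, was higher by 0.70 ± 0.06 (adjusted p = 1.35e-07). Nags, which makes the activator of the urea cycle's first enzyme, was higher by 1.35 ± 0.13 (3.63 to 8.55 CPM, adjusted p = 2.19e-07). Arg1, the arginase that releases ornithine, was higher by 1.99 ± 0.33 (0.767 to 2.97 CPM, adjusted p = 7.35e-05) and missed membership by its mix level of 2.97 CPM.

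Nhlh1 is a basic helix-loop-helix transcription factor known from newborn neurons (ENSMUSG00000051251, chromosome 1, 172052292 to 172057573, minus strand). Its levels were 0.0441, 0.106, 0.295 and 0.0898 CPM untransfected, 0.136, 0.396, 0.158 and 0.404 CPM with the control ASO and 6.31, 5.79, 5.44 and 3.17 CPM with the mix. The groups with and without the mix were far apart, with a log2 fold change of 4.39 ± 0.32. Neurod1, a second neurogenic factor of that family and a member near the thresholds, had 0.750, 0.638, 0.412 and 1.39 CPM, then 0.543, 0.837, 1.21 and 1.28 CPM, then 3.25, 3.69, 3.88 and 2.56 CPM, a log2 difference of 1.97 ± 0.29. The long intergenic RNA Gm26755, which overlaps Neurod1 on the other strand and was too rare for the test, averaged 0.0147 and 0.0281 CPM without the mix and 0.871 CPM with it. Nhlh2, the close paralog of Nhlh1, stood at 4.39 CPM with the control ASO and 3.20 CPM with the mix (log2 -0.32, adjusted p = 0.161, edgeR). Neurog1 and Neurog2 averaged at most 0.305 CPM in any group, and Neurod6 and Atoh1 were at 0 in all libraries. Among the 14 other tested genes of the list 4 were higher and 5 lower, or 2 and 3 without the mouse as a block. The partner Tcf12 was lower (log2 -0.61 ± 0.08, adjusted p = 4.6e-06), as was Tcf3 (-0.51 ± 0.10, adjusted p = 0.000405), while the inhibitors Id1 (0.52 ± 0.09, adjusted p = 8.57e-05) and Id2 (0.69 ± 0.11, adjusted p = 0.0003) were higher.

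Bcl6b encodes a zinc finger repressor related to Bcl6 (ENSMUSG00000000317, chromosome 11, 70224128 to 70229798, minus strand). It was the least even member without the mix: untransfected cultures had 0.441, 0.425, 0.471 and 2.33 CPM, and control ASO cultures 0.0905, 0.220, 0.264 and 1.41 CPM. With the mix it had 5.84, 7.24, 5.72 and 2.86 CPM. Mouse 4 was the highest without the mix and the lowest with it, where it lay close to its own untransfected value. The log2 fold change of 3.88 ± 0.80 was 5.15 without mouse 4. Of the 5 other genes in its list, none was higher and 3 were lower, Ncor1 (-0.31 ± 0.06, adjusted p = 0.000209), Bcorl1 (-0.30 ± 0.08, adjusted p = 0.00497) and Bcl6 (-0.23 ± 0.08, adjusted p = 0.0243, edgeR, a call lost in 4 of 9 alternatives). Bcl6b is known from endothelial cells. Endothelial markers summed to 53.3 to 200 CPM untransfected, 56.9 to 182 CPM with the control ASO and 41.1 to 171 CPM with the mix, with 3 of 9 tested genes lower, among them Flt1 (-0.45 ± 0.08, adjusted p = 0.000173, edgeR), and none higher. Without the mouse as a block none of the 3 was called, and Kdr and Pecam1 lost the call in 4 of 9 alternatives. None of these markers was at 0 throughout. Among all tested genes 27.3% were higher and 28.8% lower.

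Ccdc24 encodes a coiled-coil protein (ENSMUSG00000078588, chromosome 4, 117866524 to 117872557, minus strand). It had 0.618, 0.531, 0.295 and 0.269 CPM untransfected, 0.271, 0.352, 0.158 and 0.875 CPM with the control ASO and 9.46, 10.3, 9.04 and 1.77 CPM with the mix. Mice 1 to 3 lay close together with the mix and mouse 4 far below, though still above every library without it. The log2 fold change was 4.40 ± 0.52. Fam83e (ENSMUSG00000054161, chromosome 7, 45721212 to 45729492, plus strand) had 0.265, 0.213, 0.295 and 0.314 CPM, then 0.317, 0.308, 0.687 and 0.673 CPM, then 5.84, 6.08, 5.58 and 3.23 CPM, a log2 difference of 3.56 ± 0.27 with no overlap. Baiap3, a relative of the Munc13 proteins that takes part in dense-core vesicle traffic (ENSMUSG00000047507, chromosome 17, 25242659 to 25256364, minus strand), differed among all 3 groups. Its CPM was 0.265, 0.213, 0.295 and 0.359, then 0.859, 0.837, 0.951 and 1.28, then 5.22, 5.15, 5.35 and 2.80. None of the 3 groups overlapped another, and the log2 differences were 1.68 ± 0.36 for control ASO against untransfected and 2.38 ± 0.24 for mix against control ASO.

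Mouse 4 was not the lowest mix library for a pair of enzyme genes. Tmprss11f, a membrane serine protease of the Tmprss11 cluster (ENSMUSG00000048764, chromosome 5, 86521898 to 86632424, minus strand), had 0.441, 1.17, 0.707 and 0.224 CPM untransfected, 0.407, 0.484, 0.687 and 0.404 CPM with the control ASO and 3.62, 4.47, 2.55 and 4.02 CPM with the mix. Usp17ld, a deubiquitinase of a family of near-identical copies whose reads may be split among them (ENSMUSG00000057321, chromosome 7, 103249737 to 103252505, minus strand), had 0.176, 0.159, 0.118 and 0.180 CPM, then 0.452, 0.176, 0.211 and 0.0673 CPM, then 3.48, 3.65, 3.60 and 3.72 CPM. In both the mix libraries were clear of the others, and mouse 4 lay within or just above the range of mice 1 to 3. Their log2 fold changes were 3.01 ± 0.32 and 4.02 ± 0.31.

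Among members without a known protein role, Gm37696, an antisense RNA (ENSMUSG00000103473, chromosome 3, 61358549 to 61361897, minus strand), had the highest CPM. It had 0.706, 0.797, 1.24 and 1.03 CPM untransfected, 1.04, 0.484, 0.739 and 0.942 CPM with the control ASO and 17.8, 16.4, 23.7 and 5.97 CPM with the mix. The log2 fold change was 4.43 ± 0.32 and the groups with and without the mix did not overlap. AA474408 (ENSMUSG00000073867, chromosome 7, 110057987 to 110061325, minus strand) had 0.573, 0.478, 0.412 and 0.898 CPM, then 0.407, 0.529, 0.581 and 0.673 CPM, then 9.18, 7.97, 6.95 and 2.25 CPM, a log2 difference of 3.72 ± 0.40. Gm44187 (ENSMUSG00000108268, chromosome 6, 88040539 to 88042467, minus strand) had 0.838, 0.478, 1.00 and 0.673 CPM, then 0.905, 0.925, 0.845 and 1.14 CPM, then 7.44, 6.47, 7.57 and 2.38 CPM, a difference of 2.76 ± 0.26. In each of these the mix libraries stood clear, with mouse 4 lowest. Gm10382 (ENSMUSG00000072612, chromosome 5, 125389322 to 125390554, plus strand) had 0.706, 0.266, 0.177 and 0.494 CPM, then 0.678, 0.573, 0.634 and 1.08 CPM, then 6.12, 6.71, 6.10 and 1.89 CPM, a difference of 2.96 ± 0.39. For 4930404N11Rik (ENSMUSG00000020234, chromosome 10, 81363067 to 81365816, minus strand) the values were 0.485, 0.319, 0.236 and 0.0898 CPM, then 0.181, 0.440, 0.423 and 0.404 CPM, then 4.99, 5.79, 3.74 and 1.64 CPM, a difference of 3.62 ± 0.31. The same order of the libraries, with mouse 4 lowest among the mix libraries and above all others, was seen in both.

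The long intergenic RNA 4933433G15Rik (ENSMUSG00000097021, chromosome 9, 75410184 to 75417709, plus strand) had 0.529, 0.319, 0.412 and 0.494 CPM untransfected, 0.181, 1.01, 0.317 and 0.673 CPM with the control ASO and 3.67, 3.26, 3.31 and 2.19 CPM with the mix, a log2 difference of 2.66 ± 0.34. Mir1938 (ENSMUSG00000089371, chromosome 12, 40222712 to 40222811, minus strand) had 0.265, 0.213, 0.177 and 0.539 CPM, then 0.317, 0.352, 0.264 and 0.538 CPM, then 3.29, 3.55, 3.50 and 1.89 CPM, a difference of 3.21 ± 0.34. Reads on this locus come from longer RNA that covers the hairpin and do not measure the mature miRNA whose sequence is given above. Both kept the mix libraries apart from the others. The 14 members not yet given by library averaged 3.09 to 4.38 CPM with the mix, and their log2 fold changes ran from 1.82 for 2810405F17Rik to 2.49 for Lag3 and Gm27003.

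Control ASO set against untransfected cultures shows what transfection with an ASO did to the members, within the limit that both groups were held under 1 CPM by the selection. Of all tested genes, 24.2% changed in that contrast. The members' log2 differences ran from -1.10 for Bcl6b to 1.70 for Gm8251, with a median of 0.32 against 0.03 for all tested genes. A higher mean CPM with the control ASO was seen in 28 of 33 members and in 61.1% of tested genes, and 8 of 33 members and 31.2% of tested genes were higher in all 4 mice. The 5 members that were not higher were Gm37696, Ccdc24, AA474408, Bcl6b and Tmprss11f. The contrasts share the control ASO libraries.

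The mix library of mouse 4 was the lowest of its group for 30 of the 33 members. Its CPM over the mean of mice 1 to 3 ran from 0.184 for Ccdc24 to 1.13 for Tmprss11f, with a median of 0.400. Over all tested genes the median of this ratio was 1.07, and over the 803 other genes that were called higher by at least 2-fold it was 0.631. The ratio was at least 0.8 in 2 members, Tmprss11f and Usp17ld. Gm8251 came next at 0.797. Mouse 4 with the mix had 16416459 counts, the fewest of its group, and 19.5% of them in 3 loci that collect ribosomal RNA reads, against 17.7% to 19.4% in the other mix libraries. The part of depth or of these loci in the lower values was not tested. By the chi-square given with the processing, mouse 4 also stood furthest from the other mice in both groups without the mix.

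**Figure D3:**
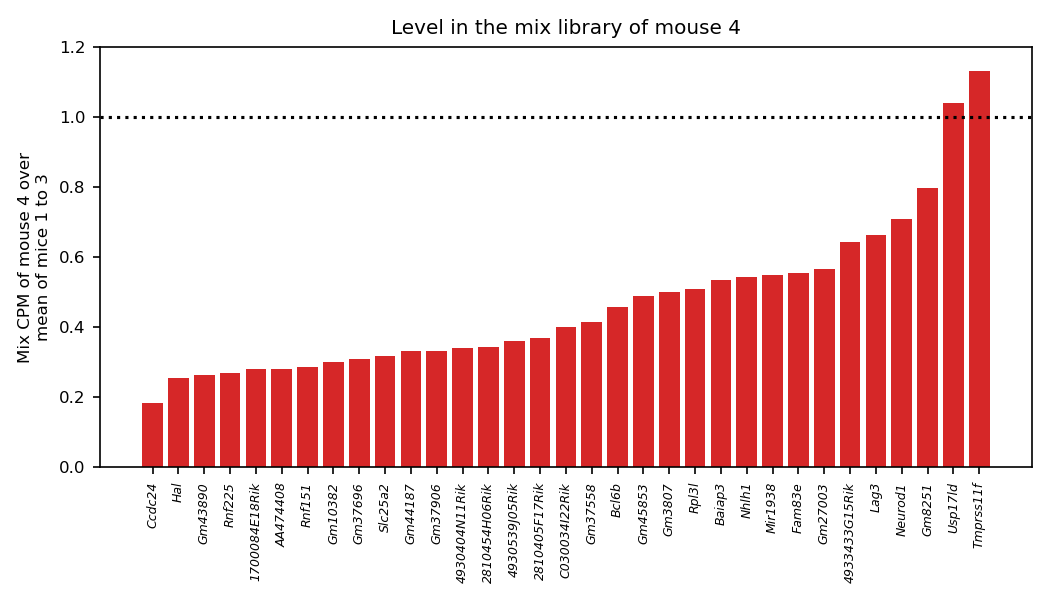
CPM of the mix library of mouse 4 divided by the mean CPM of the mix libraries of mice 1 to 3, for each member in ascending order. The dotted line marks equal levels; 31 of the 33 bars end below it, from 0.184 for Ccdc24 upward, and Usp17ld and Tmprss11f end above.

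Where the members sit in the genome was not used to select them. Each was set beside the tested genes around it by GENCODE M21 coordinates on GRCm38, in 4 arrangements chosen after the data had been seen. A member was counted first as overlapping a gene on its own strand, then as starting within 1 kb of an oppositely read gene (head to head), then as lying within 10 kb past the end of a gene on its strand, then as overlapping a gene on the other strand. Of the 33 members, 8 overlapped a same-strand gene (24.2%, against 17.2% of 2005 other near-silent tested genes and 8.29% of tested genes). Head-to-head starts were found for 10 members (30.3%, against 15.6% and 16.8%), and another 10 lay downstream of a same-strand gene (30.3%, against 15.6% and 15.4%). One had an antisense overlap of another kind (3.03%, against 10.9% and 9.42%). None of these applied to 4 members (12.1%, against 40.7% and 50.1%): Tmprss11f, Usp17ld, Gm8251 and 2810405F17Rik. The first 3 of these 4 had the 3 highest ratios of mouse 4 to mice 1 to 3, and 2810405F17Rik was at 0.369.

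**Figure D4:**
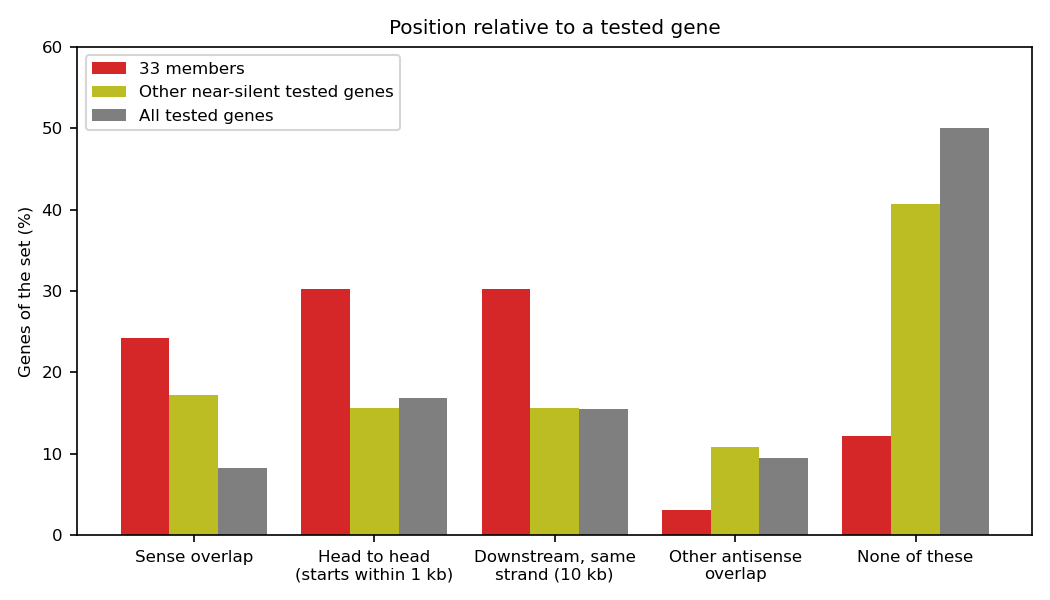
Share of genes (vertical axis, %) in each position relative to a tested gene, for the 33 members (red), 2005 other near-silent tested genes (yellow) and all tested genes (grey). Only 12.1% of members have none of the arrangements, against 40.7% and 50.1%.

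The genes that members follow on the same strand were higher with the mix. Within 10 kb before their start, 13 members had a same-strand gene of any kind (39.4%, against 28.0% of other near-silent tested genes and 27.5% of tested genes). The nearest such gene was tested for 11 of them, and 11 of 11 were higher and none lower. Among all tested genes the upstream gene was higher in 29.9% of 3050 cases and lower in 966 cases, and among other near-silent genes it was higher in 34.1% of 381. The 11 genes had log2 fold changes from 0.39 to 3.13 with a median of 0.65. Snhg9, the highest, averaged 0.145 CPM with the control ASO and 1.15 CPM with the mix and entered the test only with the mix libraries, so its direction was fixed by the filter. The 10 others ran from 0.39 to 2.47 with a median of 0.60. Over all 11 genes, the median level with the control ASO was 48.4 CPM against 13.5 CPM for all tested genes. The part of this difference in level was not tested. Mir497b before Bcl6b and Gm25171 before Usp17ld were not tested.

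Rpl18, a large-subunit ribosomal protein gene, ends 376 bases before Fam83e and was higher by 0.54 ± 0.08 (48.4 ± 4.07 to 64.5 ± 5.58 CPM, SD, n = 4, adjusted p = 2.23e-05, edgeR). Rps2 ends 5891 bases before Rpl3l and starts 53 bases from Rnf151, and was higher by 0.42 ± 0.05 (adjusted p = 4.89e-06, edgeR). Rps2 had been lower with the control ASO than in untransfected cultures (log2 -0.21, adjusted p = 0.00864, edgeR).

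Taf7, which encodes a subunit of the general transcription factor TFIID, ends 1746 bases before Slc25a2. It went from 12.7 ± 0.846 to 42.2 ± 10.5 CPM (SD, n = 4), higher by 1.85 ± 0.17 (adjusted p = 1.12e-05, edgeR). Ncstn, a subunit of gamma-secretase, ends 8440 bases before Nhlh1 and was higher by 0.39 ± 0.05 (adjusted p = 6.01e-06, edgeR). Fzr1, an activator of the anaphase-promoting complex, ends 406 bases before 4930404N11Rik and was higher by 0.54 ± 0.07 (adjusted p = 4.33e-06, edgeR). B430305J03Rik, which ends 353 bases before Gm37696, and Snhg9, which ends 1468 bases before Rnf151, had the largest differences of the 11 (2.47 and 3.13). A pair of members outside the naming rule were also in the set: Hal, histidine ammonia-lyase, 3893 bases after Lta4h (0.51 ± 0.08), and Lag3, an inhibitory receptor of T cells, 1976 bases after Ptms (0.77 ± 0.08).

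**Figure D5:**
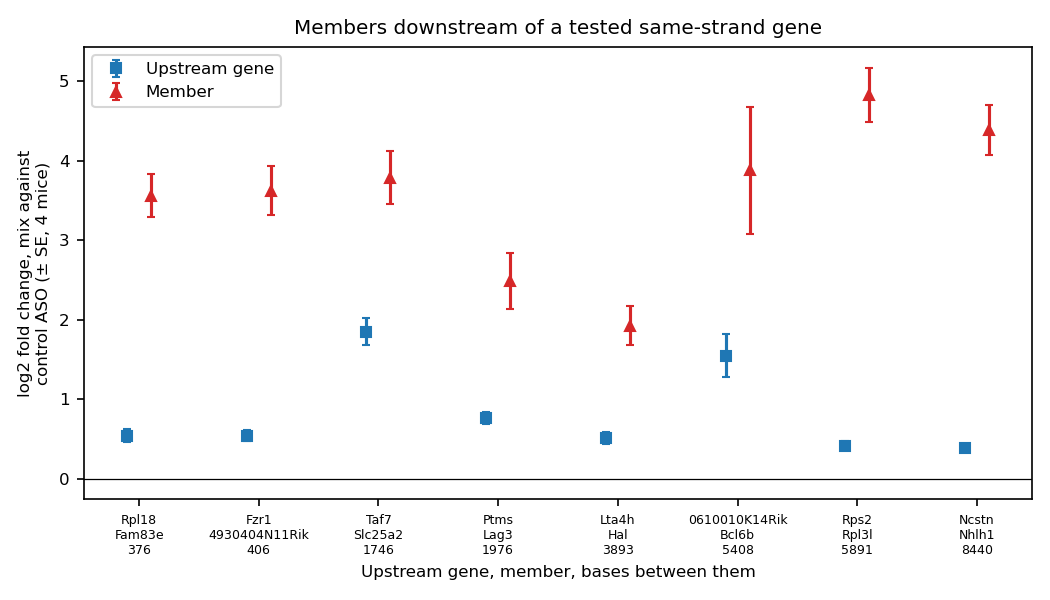
Log2 fold change of mix against control ASO (± SE from the edgeR fit, 4 mice) for 8 members (red triangles) and the nearest tested same-strand gene before each (blue squares), ordered by the bases between them. The upstream genes lie between 0.39 and 1.85 and the members, which were selected for a high value, between 1.93 and 4.83.

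The genes that overlap members moved in both directions. On either strand, 21 members overlapped 29 genes, of which 20 were tested: 8 were higher, 5 lower and 7 had no call, with a median log2 fold change of 0.01. Among all tested genes, 27.3% were higher and 28.8% lower, and a difference from these shares was not tested. Of the TEC and microRNA members, 6 lay wholly within introns of a same-strand gene and shared no exonic base with it. These were Gm44187 in Rab7, Gm37558 in Kpna4, Gm43890 in Mthfd2, Gm37906 in Phf3, Gm45853 in Csnk2a2 and Mir1938 in Ifrd1. Their hosts were lower in 3 cases, Kpna4 (-0.25 ± 0.06, adjusted p = 0.00197), Phf3 (-0.31 ± 0.06, adjusted p = 0.000221) and Csnk2a2 (-0.35 ± 0.06, adjusted p = 0.000165, edgeR). Ifrd1 was higher (0.25 ± 0.07, adjusted p = 0.00532, a call lost in 3 of 9 alternatives), and Rab7 (-0.04 ± 0.04, adjusted p = 0.509) and Mthfd2 (-0.02 ± 0.06, adjusted p = 0.736) had no call. Ccdc24 shares 31.6% of its exonic bases with exons of B4galt2, a galactosyltransferase gene on the same strand that was higher by 1.22 ± 0.15 (20.7 ± 2.25 to 44.1 ± 9.30 CPM, SD, n = 4, adjusted p = 8.24e-05, edgeR), so part of its count cannot be told apart from B4galt2. On the other strand Slc6a9 had no call (-0.07 ± 0.08, adjusted p = 0.491). Also on the other strand, Tsr3 across from Baiap3 (0.39 ± 0.10, adjusted p = 0.00382, a call lost in 2 of 9 alternatives), Mfsd12 across from 4930404N11Rik (0.30 ± 0.07, adjusted p = 0.00222) and Gm7008 across from Mir1938 (1.39 ± 0.28, adjusted p = 0.0004, edgeR) were higher. C030034I22Rik lies across from A930029G22Rik, which was higher by 0.92 ± 0.27 (adjusted p = 0.00807, edgeR). Neurod1 shares 7.37% of its exonic bases with Cerkl, which averaged under 1 CPM in each group.

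The head-to-head partners were counted in the same way. Of 10, 4 were higher, 3 lower and 3 had no call, with a median of 0.04. The shares over all tested genes were 27.3% higher and 28.8% lower, and a difference from them was not tested. Higher were Rap2b beside Gm37696 (starts 259 bases apart; 0.52 ± 0.11, adjusted p = 0.00165), Rps2 beside Rnf151, Lrrc8a beside 1700084E18Rik and Arhgdia beside Gm3807 (46 bases apart; 0.54 ± 0.05, adjusted p = 3.19e-07, edgeR). Lower were Zfp143 beside AA474408 (108 bases apart; -0.52 ± 0.09, adjusted p = 0.000144), Mapk6 beside 4933433G15Rik (179 bases apart; -0.21 ± 0.06, adjusted p = 0.00551) and Gabpb1 beside Gm27003 (421 bases apart; -0.33 ± 0.08, adjusted p = 0.00222). Among those with no call were Gpr19 beside 2810454H06Rik and Ube2d3 beside 4930539J05Rik. The kit marks strand, but the sources used here do not say whether the counting used it, and reads of a member and of a gene across from it cannot be told apart where they overlap.

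Other genes of low level were counted in the same fit. Their range does not match every member, and Rpl3l (0.188 CPM untransfected) and Nhlh1 (0.134 CPM) are among the members below it. Of 1415 other genes with 0.5 to 1 CPM in untransfected cultures, 218 were called higher (15.4%) and 154 lower, with a median of 0.02. Within them, 24.3% of those head to head with a tested gene were higher and 21.3% of those with another antisense overlap. The share was 17.2% for those downstream of a same-strand gene, 15.8% for those with a sense overlap and 10.5% for those with none. In that order, 49, 30, 36, 38 and 65 genes were higher and 13, 11, 35, 31 and 64 lower. The median log2 fold changes were 0.23, 0.15, -0.10, -0.06 and 0.001. Without the members, Ptprv and protocadherin genes, 34367 genes had a mean under 1 CPM untransfected. They summed to 2448 ± 298 CPM untransfected, 2932 ± 304 CPM with the control ASO and 3354 ± 303 CPM with the mix (SD, n = 4). Their choice by the untransfected level holds the first of these sums low. The difference between mix and control ASO was 422 ± 523 CPM (SD over 4 mice), higher in 3 of 4 mice (exact permutation test within mice, two-sided p = 0.25, where 4 pairs cannot go below 0.125). An average of 671 of these genes reached 1 CPM in a mix library and 482.5 in a control ASO library (exact permutation p = 0.25).

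Selecting with the roles of the groups exchanged gave other counts. The same thresholds with untransfected cultures as the high group found 24 genes, and with the control ASO as the high group none, compared with 33 for the mix. In the reverse sense, 16 genes had under 1 CPM with the mix and at least 3 CPM in both other groups, and none did so for the control ASO or the untransfected cultures. Just inside the mix threshold were Mir1938 (3.06 CPM), Gm3807 (3.09), 4933433G15Rik (3.11) and Gm45853 (3.15), and just outside Gm42929 (2.99), G730003C15Rik (2.97), Arg1 (2.97) and Tssk3 (2.96). At the limit on the control ASO, 2810405F17Rik (0.994 CPM), Gm8251 (0.992), C030034I22Rik (0.991) and Baiap3 (0.981) were inside, and Gm10616 (1.04), C4a (1.07), A530013C23Rik (1.08) and Gm17259 (1.11) outside. At the limit on untransfected cultures, Gm37696 (0.943 CPM), Bcl6b (0.918), Gm43890 (0.806) and Neurod1 (0.798) were inside, and Pkn3 (1.08), Gm19721 (1.29) and E2f7 (1.85) outside.

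Genes of the machineries that silence chromatin, end transcripts or degrade nuclear RNA were counted against the background of 28.8% lower and 27.3% higher among all tested genes, with no test of the difference. Of 24 cleavage, polyadenylation and termination factors, 13 were lower and 3 higher, with a median log2 fold change of -0.28 against -0.03 for all genes. Scaf8 was lower (-0.60 ± 0.06, 65.6 to 40.1 CPM, adjusted p = 6.82e-07, edgeR), as were Cstf3 (-0.60 ± 0.08) and Wdr33 (-0.58 ± 0.08). The 3 higher genes were Pcf11 (0.34 ± 0.07, adjusted p = 0.000495, edgeR), Xrn2 (0.31 ± 0.06, adjusted p = 0.000314, edgeR) and Scaf4 (0.22 ± 0.07, a call lost in 2 of 9 alternatives). Of 22 genes of the nuclear exosome and its adaptors, 13 were lower, among them the core subunit gene Exosc2 (-0.70 ± 0.10, adjusted p = 8.48e-06) and the nuclease gene Exosc10 (-0.38 ± 0.07, adjusted p = 0.000251), and 3 higher, among them Pabpn1 (0.64 ± 0.09) and Srrt (0.60 ± 0.08), with a median of -0.24. Among 24 silencing genes 11 were lower and 5 higher (median -0.21). The H3K9 methyltransferase gene Setdb1 was lower (-0.76 ± 0.07, 31.5 to 17.2 CPM, adjusted p = 2.17e-07, edgeR) and so was Atrx (-0.70 ± 0.08), while Trim28 (0.63 ± 0.06) and Suv39h1 (0.77 ± 0.09) were higher. Of 22 genes of polymerase pausing and elongation 11 were higher and 7 lower (median 0.13). Mepce, which caps the 7SK RNA, was higher (0.95 ± 0.06, adjusted p = 6.31e-09, edgeR), as was Paf1 (0.62 ± 0.06). A bearing of these lists on the members was not tested.

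Germline genes, listed because Rnf151 is known from testis, were rare: 4 of 16 were tested, 1 higher and 1 lower. Tex19.1 was higher by 3.65 ± 0.61 (0.0612 to 0.810 CPM, adjusted p = 6.93e-05, edgeR), but it entered the test only with the mix libraries, so its direction was fixed by the filter, and Piwil2 lower (-0.91 ± 0.19, 4.00 to 1.96 CPM, adjusted p = 0.000595). Rhox13, Sycp1 and Tex101 were at 0 in all 12 libraries, and the list summed to 4.95 to 7.95 CPM untransfected, 6.87 to 8.95 CPM with the control ASO and 5.87 to 8.47 CPM with the mix. Of 8 tested macrophage markers 2 were higher, Cd68 (1.10 ± 0.09, 20.4 to 39.7 CPM, adjusted p = 7.58e-08, edgeR) and Csf1r (0.52 ± 0.16, a call lost in 1 of 9 alternatives). None was lower and 6 had no call, from C1qa at -1.15 to Adgre1 at 0.74. The median of the 8 was -0.19. With the mix, Cd68 made up most of the list's sum of 45.5 to 51.0 CPM. Of 11 proliferation markers 2 were higher and 2 lower. Across all tested genes 27.3% were higher and 28.8% lower.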

How the data were processed

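The authors deposited raw counts of reads per gene for 12 libraries. Per the labels' protocols, total RNA was purified with an RNeasy kit and made into TruSeq Stranded libraries, sequenced as read pairs of 150 bases. Builds GRCm38 and mm10 and the tools bcl2fastq 2.17, STAR and HTSeq are named in the submitters' processing notes. Which annotation release was counted, and whether by strand, is not given in the sources used here. Of 48795 IDs, 48435 were matched to a symbol in GENCODE M21 (GRCm38), which also gave coordinates; the other 360 held at most 0.0308% of any library's counts. Sequences are from RefSeq tables of GRCm38.p6.

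CPM is the count over the column total, times 1000000. The test across genes was that of edgeR 4.0.16 in R 4.3.3 (robust quasi-likelihood test, two-sided, group and mouse as terms, all 12 libraries, trimmed mean of M values, filterByExpr with a minimum count of 10, 16831 genes), with Benjamini-Hochberg adjustment over all of them, and a gene was called at an adjusted p under 0.05. Mouse was a block because the series design says that each replicate number is 1 mouse divided among the conditions. Deviations of same-mouse libraries from their group means correlated at 0.168 to 0.630 over 12 pairs. Every one of 18 pairs of replicate libraries differed by more than counting noise (chi-square per degree of freedom of at least 5.21). Pairs with mouse 4 ran from 12.6 to 25.8 and pairs without it from 5.21 to 12.9. In each group the pairs with mouse 4 differed most. The edgeR step was tested on simulated data.

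The members and the gene lists were chosen with earlier results of these data known. Described in full are 5 marker genes, the 12 members with the highest mean mix CPM and the 6 with the largest log2 fold change not yet named. The 4 genes nearest each side of a threshold, the neighbours of the members described in full and up to 4 genes with the smallest p of each list were added, and the other members are named by position. Alternatives were fits without the mouse, other scalings (DESeq2 1.42.0 size factors, library size), DESeq2's Wald test, no filter on low counts, other thresholds and distances, and each mouse left out. Library-size scaling of the calls and the arrangement distances were added after seeing the data. Some genes that this rule names are left out here.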

Additional observations from a re-analysis of the deposited data

Results flagged for a closer look

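Values were picked out where 1 library of 4 stood apart from the other 3 of its group by Dixon's criterion. Of 102 groups looked at, 14 were picked out. For 1 group alone, chance picks out about 1 in 20. The groups come from the same 12 libraries and are not independent, so an excess over chance was not tested. Of the 14, 8 were the mix library of mouse 4, always as the low value. There the 33 members summed to 80.4 CPM, against 193 to 203 CPM in mice 1 to 3. Ccdc24 had 1.77 CPM against 9.04 to 10.3, Gm10382 had 1.89 against 6.10 to 6.71, and Baiap3 had 2.80 against 5.15 to 5.35. Rnf151 had 1.22 CPM against 4.04 to 4.56, Gm43890 had 1.10 against 4.07 to 4.23, 2810405F17Rik had 1.40 against 3.67 to 3.99, and Mir1938 had 1.89 against 3.29 to 3.55.

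Without the mix, mouse 4 was the high value for Bcl6b, at 2.33 CPM untransfected (0.425 to 0.471 in the others) and 1.41 CPM with the control ASO (0.0905 to 0.264), and for Rnf225, at 0.673 CPM untransfected (0.221 to 0.295). Low values were those of 4930404N11Rik with the control ASO in mouse 1 (0.181 CPM against 0.404 to 0.440), 1700084E18Rik untransfected in mouse 3 (0.354 against 0.478 to 0.494) and Gm37906 untransfected in mouse 2 (0.213 against 0.573 to 0.629).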

How the results depend on the processing

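The number of members depended on the thresholds: 97 genes passed at a mix level of 2 CPM, 11 at 5 CPM, 8 at a near-silent limit of 0.5 CPM and 99 at 2 CPM. It was 42 with TMM-scaled CPM and 41 with totals that leave out the 3 ribosomal RNA loci, of which 33 and 19 were members. Leaving out each mouse in turn gave 24 to 56 genes, the highest without mouse 4, of which 30 were members. Without the mouse as a block (no pairing of conditions by replicate number), 34 genes met the rule, calls of mix against control ASO fell from 9454 to 7968 and those of control ASO against untransfected from 4081 to 2391. Leaving out each mouse gave 7390 to 10217 calls and 2540 to 3946 calls, the lowest of the latter without mouse 3. With DESeq2's test the counts were 8367 and 3383. Of the upstream same-strand genes, 11 or 12 were called, all higher, under each fit and each mouse left out. Within 5 kb 8 of 8 were higher, and within 50 kb 13 were higher and 2 lower. Each of these counts includes Snhg9, whose direction was fixed by the filter in the main fit. Where 12 were called, the added gene was Mir497b (0.0336 CPM with the control ASO, 1.10 CPM with the mix), which the main fit did not test. Calls among overlapping genes ranged from 11 to 15. The members' median log2 fold change was 2.50 to 2.93 with each mouse left out and 2.63 without the block. The difference in other near-silent genes was 422 CPM, 716 CPM with TMM-scaled CPM and 251 to 653 CPM with each mouse left out (exact permutation p = 0.114 over 8 libraries without the block). Of list genes that are no members, 114 were called without the block and 126 with DESeq2, against 133. Without the block, lower calls went from 3 to 0 among endothelial, from 1 to 0 among sensory neuron and ornithine genes and from 7 to 4 among pausing genes. Of members, 26 to 31 had 1 of the arrangements under other distances, against 29. Of 1413 alternative values for 157 called neighbour and list genes, 113 lost the call and none changed direction. None of 297 for the members changed direction, but the selection had fixed that direction. Few reads per library without the mix (at most 52) limit every fold change of a member, and with 4 mice the single library of mouse 4 weighs on each mean.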
